A study of Mus musculus with 16 samples.

Results

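Regions listed as open in fed but not in fasting mice in several organs at once were described from peak lists of ATAC-seq. In this assay the Tn5 transposase cuts and tags accessible DNA. A region without a listed peak is not shown to be closed. Brown adipose, white adipose, liver, muscle, heart, spleen, kidney and lung were taken from male C57BL/6 mice, aged 12 weeks when purchased, that were either fed or fasted for 24 h. No allele, transgene or drug was involved, and all groups share strain and sex. Each of the 16 groups is 1 library made from tissue pooled from 3 mice, so there is no replicate of any tissue in either state, and the tissues of fed mice share their animals, as do those of fasting mice. Lists of 5 marker genes per tissue were each highest in their own tissue for 8 of 8 lists, with no marker absent there. In whole tissue, fewer cells of a type and less open chromatin per cell cannot be told apart.

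Regions with a -log10 q of at least 2 formed the set of a library, and the sets of all 16 libraries were merged wherever they overlapped by 1 bp, which gave 760105 merged regions. A tissue was called fed-only at a merged region when its fed set overlapped the region and no listed fasting peak of that tissue did. Listed fasting peaks counted at any strength, down to the end of the list. The recurrent fed-only regions are the 771 that were fed-only in 4 or more of the 8 tissues. They were chosen by these measured peak calls, so the calls themselves are given as a description without a test. Of the 771, 700 were fed-only in 4 tissues, 65 in 5 and 6 in 6, and none in 7 or 8. They are 0.101% of all merged regions and 0.886% of the 87060 merged regions that had a fed set region in 4 or more tissues. The mirror rule, a fasting set region with no listed fed peak in 4 or more tissues, found 875 regions, or 0.115%. The fed direction was thus not the more frequent at this threshold, but the order turned at a -log10 q of at least 3, with 350 fed-only against 232 fasting-only regions, and without muscle, with 461 against 403. It also turned, with 42 against 25, when tags were thinned to the background of the shallowest library. That setting also replaced the thresholds by a thinned -log10 p of at least 5 for the set and 2 for presence. The 2 directions were not counted at the same reach, since the lists end at different strengths. The weakest listed -log10 q was 5.26 in fed and 0.649 in fasting brown adipose, and 4.22 and 1.48 in white adipose. The fed list also ended higher in liver, lung and kidney, and the fasting list in muscle, spleen and heart. The part of this in the 2 counts was not tested.

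Accessible regions mark promoters, enhancers and insulators, where DNA-binding proteins displace nucleosomes. After a meal, insulin signalling favours glucose uptake and the synthesis of fat and glycogen, and in fasting FOXO factors, PPARα, CREB and the glucocorticoid receptor turn on genes for fatty acid oxidation and glucose production. Transcription factors of these pathways open and close enhancers. Promoters of broadly expressed genes and sites of CTCF, the zinc-finger protein that organises chromatin loops, are open in most tissues.

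The 6 regions that were fed-only in the largest number of tissues are shown first, on the plus strand of GRCm38 as RefSeq gives it, because they are where the pattern recurred most. Capitals mark the CAGCTG E-box and the CCAAT box, the only searched motifs found inside the printed stretches. At Cript and Nsmaf, whose regions are longer, 200 bases around the strongest summit are printed, and both stretches reach past an edge of the region. The strongest summit, used for distances and sequence windows, is that of the highest-ranked listed peak of any of the 16 libraries, fed or fasting. It came from fasting spleen at Cript and from fasting heart at Nsmaf. The 6 stretches are chr17:74294040-74294144, chr17:87036823-87037022, chr2:34718233-34718486, chr5:33371221-33371443, chr4:6446712-6446911 and chrX:106027815-106027946.
Memo1: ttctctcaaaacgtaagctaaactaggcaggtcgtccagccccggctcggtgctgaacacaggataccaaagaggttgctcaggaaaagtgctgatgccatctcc
Cript: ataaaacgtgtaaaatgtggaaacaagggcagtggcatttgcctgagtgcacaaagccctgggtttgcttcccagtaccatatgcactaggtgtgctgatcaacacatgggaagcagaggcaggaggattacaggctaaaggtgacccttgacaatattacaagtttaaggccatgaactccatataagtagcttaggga
Gapvd1: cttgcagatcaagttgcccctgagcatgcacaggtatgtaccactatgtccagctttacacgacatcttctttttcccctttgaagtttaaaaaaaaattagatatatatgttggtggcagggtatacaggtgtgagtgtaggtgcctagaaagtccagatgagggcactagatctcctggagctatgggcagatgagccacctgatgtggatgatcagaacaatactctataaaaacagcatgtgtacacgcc
Maea: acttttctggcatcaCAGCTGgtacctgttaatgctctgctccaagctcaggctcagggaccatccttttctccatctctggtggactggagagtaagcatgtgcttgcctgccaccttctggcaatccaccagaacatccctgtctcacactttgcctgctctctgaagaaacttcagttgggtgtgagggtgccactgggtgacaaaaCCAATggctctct
Nsmaf: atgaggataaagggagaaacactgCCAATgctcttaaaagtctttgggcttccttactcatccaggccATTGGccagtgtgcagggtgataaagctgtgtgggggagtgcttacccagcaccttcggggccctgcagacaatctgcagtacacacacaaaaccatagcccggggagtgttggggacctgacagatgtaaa
Atp7a: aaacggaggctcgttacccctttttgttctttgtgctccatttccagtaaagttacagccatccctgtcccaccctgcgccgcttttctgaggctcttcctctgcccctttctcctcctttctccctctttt

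Of these 6, the regions at Memo1, Maea, Nsmaf and Atp7a lay in introns within 1000 bp of a protein-coding start, at 704, 258, 485 and 568 bp, and that at Gapvd1 in an intron at 1095 bp. The region nearest to Cript was intergenic, 11312 bp from the start. None of their summits lay on the start itself.

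Memo1 encodes a regulator of cell motility. Its region had percentile ranks, in which 100 is the strongest peak of a library by p, of 64.5 in fed liver, 61.8 in fed muscle, 44.6 in fed brown adipose, 13.5 in fed white adipose, 20.6 in fed lung and 47.6 in fed kidney. The only other library that listed it was fasting heart, at rank 60.1, which is the opposite direction. The summit held 197 tags (sequenced Tn5 cuts) in fed brown adipose against 88.5 expected from the neighbourhood, and 24 against 7.15 in fed liver.

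Gapvd1 encodes an activator of Rab GTPases in endocytosis. Its region ranked 86.6 in fed liver, with 26 tags against 2.80 expected, 19.3 in fed brown adipose, 40.5 in fed spleen, 39.8 in fed heart, 28.1 in fed lung and 6.03 in fed kidney. Fed muscle listed it below the set threshold at rank 1.74, and no fasting library listed it.

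Atp7a encodes a copper-transporting ATPase and lies on the X chromosome. Its region ranked 48.4 in fed liver, 8.31 in fed brown adipose, 3.54 in fed white adipose, 71.0 in fed heart, 25.1 in fed lung and 4.34 in fed kidney, and was listed in no other library. All 6 calls were in the fed state, yet 3 of them were near the bottom of their lists.

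Maea encodes a subunit of the CTLH ubiquitin ligase. Its region was fed-only in liver at rank 62.1, muscle at 17.99, brown adipose at 24.3, white adipose at 24.9, heart at 44.1 and lung at 44.9. In spleen it was listed at rank 86.8 in the fed and 79.4 in the fasting library, and in kidney at 65.3 and 62.3. The region was therefore open in both states in the tissues where it was strongest.

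Nsmaf encodes an adaptor of neutral sphingomyelinase. Its region ranked 26.9 in fed liver, 33.1 in fed brown adipose, 29.9 in fed white adipose, 31.0 in fed spleen, 16.2 in fed lung and 42.1 in fed kidney. Muscle listed it at 63.1 fed and 52.0 fasting, and heart at 34.1 fed and 74.6 fasting.

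Cript encodes a small PDZ-binding protein. Its region ranked 59.7 in fed muscle, 35.0 in fed brown adipose, 31.7 in fed white adipose, 58.1 in fed heart, 37.7 in fed lung and 10.2 in fed kidney. It was listed without a fed peak in fasting spleen at rank 61.6 and in fasting liver at 9.30, so the direction was opposite there.

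**Figure D1:**
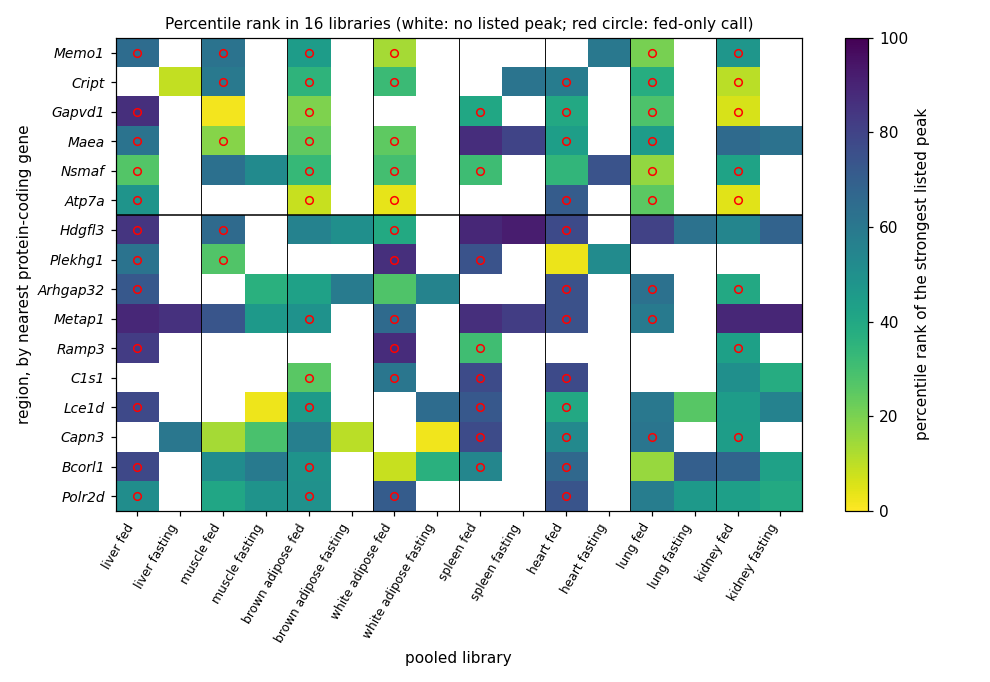
Percentile rank of the strongest listed peak (colour, 0 to 100) at 16 recurrent fed-only regions, in rows by nearest protein-coding gene, in the 16 pooled libraries, in columns; white means no listed peak and red circles mark fed-only calls. The 6 upper rows were fed-only in 6 tissues and the 10 lower rows had the highest mean rank; Memo1 and Cript also have a fasting-only tissue, and Metap1 is dark in both states of liver, spleen and kidney.

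The strongest recurrent regions were often open in both states in further tissues. The highest mean rank over fed-only tissues, 66.7, belonged to an intergenic region 19884 bp from the start of Hdgfl3, a gene of the hepatoma-derived growth factor family. It was fed-only in liver at rank 84.7, muscle at 65.6, white adipose at 39.1 and heart at 77.5, and was listed in both states in brown adipose, spleen, lung and kidney. In spleen it ranked 88.8 fed and 91.8 fasting, and in lung 80.3 fed and 62.4 fasting.

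A region in an intron of Metap1, a methionine aminopeptidase, was fed-only in brown adipose at rank 49.1, white adipose at 65.4, heart at 75.2 and lung at 58.8. The other 4 tissues listed it in both states, with kidney at 88.9 fed and 89.3 fasting and liver at 88.8 fed and 85.8 fasting. In contrast, a region in an intron of Ramp3, a partner of calcitonin-family receptors, was listed in 4 libraries in all, namely fed liver at 82.2, fed white adipose at 87.3, fed spleen at 30.6 and fed kidney at 43.3. Its fed white adipose summit held 171 tags against 30.5 expected.

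The region in Plekhg1 ranked 62.1 in fed liver, 27.1 in fed muscle, 86.4 in fed white adipose and 74.6 in fed spleen, and was listed in heart in both states at 2.76 fed and 51.6 fasting. The remaining regions of highest mean rank were nearest to Arhgap32, Bcorl1, a corepressor, Polr2d, an RNA polymerase II subunit, C1s1, a complement protease, Lce1d, a cornified envelope gene, and Capn3, the muscle calpain. Their mean ranks ran from 58.9 to 62.4.

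The fed-only calls were mostly weak or middling peaks. Over the 3161 fed-only calls of the 771 regions the median rank was 35.2, with quartiles of 19.7 and 51.9, and 27.9% of calls ranked over 50. A rank over 90 was reached by 1 call, at 91.7 in fed white adipose. A -log10 q of at least 6 was reached by 39.6% of calls, and 18.5% were under 3. In kidney the median rank was lowest, 17.6, and in heart highest, 55.8. These ranks were close to those of all fed-only regions of the same tissue in kidney, 17.6, and liver, 43.4 for both groups, above them in spleen, 51.9 against 40.5, and below them in white adipose, 28.9 against 33.2.

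The summit tags show how far a fed-only call stood from what the fasting list could have held. In fed liver the median call held 13 tags where 2.80 were expected, and in fed spleen 16 where 3.56 were expected. In fed brown adipose it held 55 tags where 14.7 were expected, and in fed white adipose 44 where 12.3 were expected. The fasting lists ended at 9 tags in liver, 12 in spleen, 15 in brown adipose and 15 in white adipose in regions at genome background. After both were divided by the background of their library, the median member call exceeded that limit by 1.33 times in lung, 1.40 in spleen, 1.45 in liver, 1.46 in muscle, 1.503 in heart, 1.59 in kidney, 1.72 in white adipose and 1.94 in brown adipose. A fasting signal below that limit would not be listed. The limit holds at genome background only, and 22.3% of the member calls had expected tags over 2 times the background. In such neighbourhoods a listing takes more tags, so the ratios overstate the distance for those calls.

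At the edge of the rule, the weakest deciding calls just inside had a -log10 q of 2.003 (at Rras2, a Ras-family GTPase) and 2.00001 (at Tsen15, a tRNA splicing subunit). Those just outside had 1.997 (Pds5b, a cohesin regulator) and 1.996 (Itm2c). The call of 2.00001 was in fed muscle. The fasting muscle list ended at 2.80, so a fasting peak of equal strength would not be listed there.

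Brown adipose carried the most calls. There 484 of the 771 regions were fed-only, where 4.89% of all merged regions were. White adipose followed with 457 (6.45% of all merged regions), lung with 442 (4.84%), spleen with 409 (11.2%), muscle with 350 (4.45%), liver with 349 (10.8%), kidney with 337 (3.56%) and heart with 333 (5.02%). The rule used these calls, so the shares cannot be read as a result about the members. Background tags, which are proportional to depth, were 1.89 times higher in the fed than in the fasting library of brown adipose, 1.71 times in white adipose and 1.25 times in lung, and lower in muscle (0.605 times) and heart (0.843 times). The share of the calls that goes with depth was not tested.

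**Figure D2:**
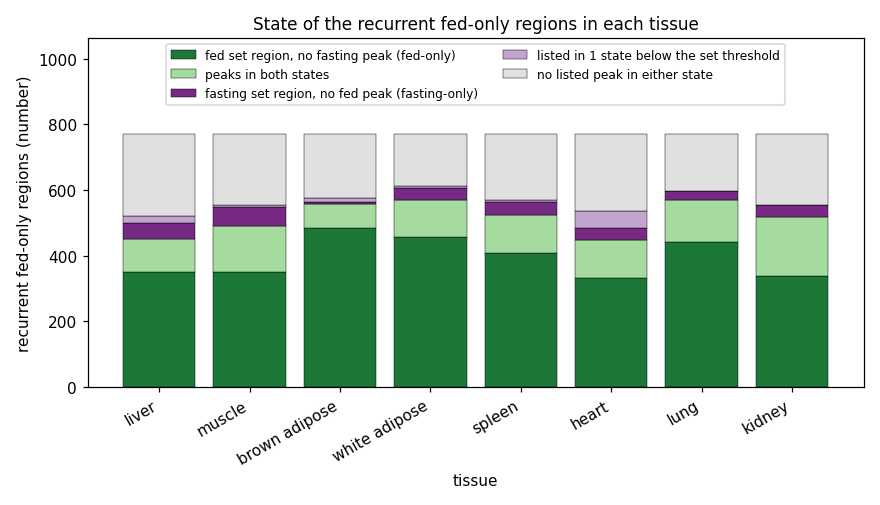
Number of the 771 recurrent fed-only regions in each tissue by state, in stacked bars with tissues along the x axis. Fed-only calls run from 333 in heart to 484 in brown adipose, and fasting-only calls from 8 in brown adipose to 57 in muscle.

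In tissues outside the calls there were 293 fasting-only calls, 57 in muscle, 50 in liver, 41 in spleen, 38 in heart, 36 in white adipose, 35 in kidney, 28 in lung and 8 in brown adipose. As a share of the 771 regions this is 7.39% in muscle, where 5.53% of all merged regions were fasting-only, and 4.54% in kidney, against 3.90%. It is below the share of all merged regions in liver (6.49% against 7.06%), white adipose (4.67% against 5.18%), heart (4.93% against 6.06%), lung (3.63% against 4.16%), brown adipose (1.04% against 2.99%) and spleen (5.32% against 13.4%). The rule lowers these shares, since a fed-only call bars a fasting-only one. Of the recurrent regions not fed-only in the tissue, 13.5% were fasting-only in muscle, 11.8% in liver, 11.5% in white adipose and 8.68% in heart. In lung this share was 8.51% and in kidney 8.06%, and in all these tissues it was above that of all merged regions. It stayed below in brown adipose (2.79%) and spleen (11.3%). No fasting-only tissue was found at 524 regions, 1 at 204, 2 at 40 and 3 at 3. Peaks of both states in at least 1 tissue were listed at 535 regions, and 142 regions had no fasting peak in any tissue. No region was also fasting-only in 4 or more tissues.

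All 70 possible sets of 4 tissues occurred, and with the larger sets 113 combinations were seen. The most frequent was brown adipose, white adipose, spleen and lung, with 27 regions (3.50%), followed by brown adipose, white adipose, lung and kidney with 20 and brown adipose, spleen, lung and kidney with 20. A set of 4 held 9 regions at the median. By pairs, brown and white adipose shared 270 regions, which is 55.8% of the brown and 59.1% of the white adipose calls, and brown adipose and lung shared 252. The rule sets such shares high, as each call comes with at least 3 others, and over all fed-only regions the brown and white adipose overlap was 9.53% and 7.22%. Liver and spleen, which shared most over all fed-only regions (4322), shared 160 of the 771. Muscle and kidney shared fewest, 114. Brown adipose, white adipose and lung form the leading pairs, and they are the tissues with most calls and the 3 whose fed library was clearly deeper. Spleen, also in the most frequent combination, had a fed over fasting background of 0.955. The part of depth in these combinations was not tested.

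Within the most frequent combination the highest mean rank, 48.2, belonged to an intronic region of Ttf2, a transcription termination factor. It ranked 39.4 in fed brown adipose, 39.1 in fed white adipose, 48.8 in fed spleen and 65.5 in fed lung, and in heart and kidney both states were listed, with the fasting rank the higher (57.4 against 34.2 and 45.6 against 38.3). Among the next combinations, strong regions were at Cldn14, a tight junction gene (brown adipose, spleen, lung and kidney, mean rank 57.2) and Drd3, a dopamine receptor gene 44819 bp away (liver, white adipose, lung and kidney, 48.4).

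Whether a region that was fed-only elsewhere leans to the fed side in a tissue that did not choose it was asked by leaving out each tissue in turn. Regions fed-only in 4 or more of the other 7 tissues were read in the left-out tissue, among its fed-only and fasting-only regions. The fasting-only calls read are those already counted above at the recurrent regions, such as 50 in liver and 8 in brown adipose. The fed-only calls read belong to the recurrent regions fed-only in 5 or 6 tissues. Each such region counts once in every tissue where it was fed-only. The reading thus uses the calls of the recurrent regions again. The fed-only share was 47.4% in liver (exact 95% interval 37.0 to 57.9%, 95 regions) against 60.4% over all merged regions. It was 41.2% in muscle against 44.6%, 58.6% in white adipose against 55.4%, 51.2% in spleen against 45.5% and 48.6% in heart against 45.3%. In lung it was 61.1% against 53.8%, in kidney 56.8% against 47.7% and in brown adipose 87.5% (76.8 to 94.4%, 64 regions) against 62.0%. The share was above that of all regions in 6 of 8 tissues.

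The mean difference was 4.71 percentage points (SD 10.96, n = 8 tissues), which did not pass a two-sided exact sign-flip permutation test over tissues (p = 0.297, 0.359 after Benjamini-Hochberg adjustment over 3 tests). The smallest p this test allows is 0.0078. Brown adipose, with the largest difference, is also the tissue with the largest fed over fasting background, and with the regions chosen again from the other 7 tissues the mean was 2.09 points, with 3 of 7 above 0. After thinning, with the thresholds given above, it was 21.8 points over the 6 tissues that gave a value (5 above 0, exact sign-flip p = 0.0625). The mirror regions, fasting-only in 4 or more of the other 7 tissues, were fasting-only in the left-out tissue more often than all regions in 8 of 8 tissues, by 16.1 points on average (SD 6.57, exact sign-flip p = 0.0078, adjusted 0.0234). The difference between the 2 directions, 11.4 points, was itself not past the threshold (exact sign-flip p = 0.0625).

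Set against regions seen in 1 state only in 4 or more of the other 7 tissues in either direction, a comparison chosen after seeing the data, the fed-sided regions had the higher fed-only share in 8 of 8 tissues. The mean difference was 8.0 points (SD 6.63, lowest 3.16 in muscle, highest 20.6 in brown adipose, exact sign-flip p = 0.0078). The comparison pools fed-sided and fasting-sided regions. Against it the fasting-sided regions likewise had the higher fasting-only share in 8 of 8 tissues, by 12.9 points on average (exact sign-flip p = 0.0078). No conclusion about the direction is drawn from it. Tissues share their animals, and many chosen regions recur from 1 left-out tissue to the next. These p-values therefore cover these pools only and treat tissues as more independent than they are. Since the calls read are those of the recurrent regions themselves, the p-values are no independent support for either direction.

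**Figure D3:**
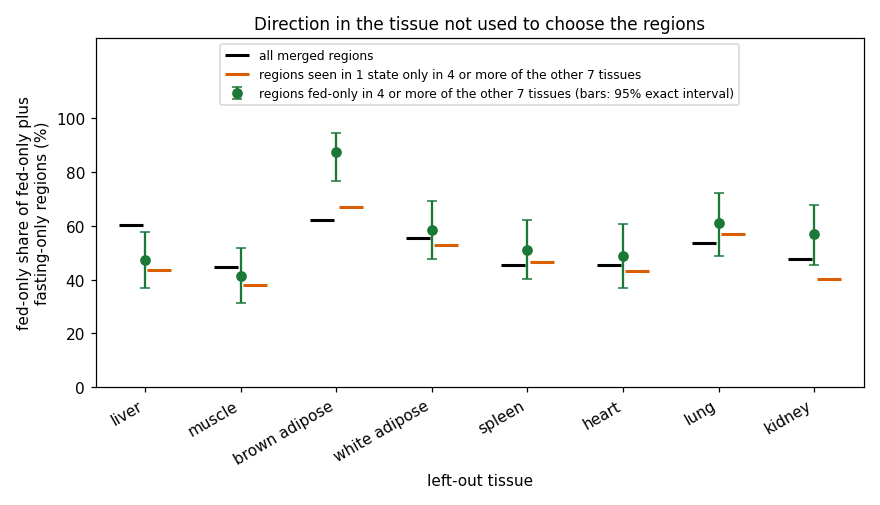
Share of fed-only among fed-only plus fasting-only regions (y axis, %) in each left-out tissue (x axis), for regions fed-only in 4 or more of the other 7 tissues (green, with exact 95% intervals), all merged regions (black) and regions seen in 1 state only in 4 or more of the others (orange). Brown adipose, at 87.5%, lies above both comparisons, and liver, at 47.4%, lies below all merged regions.

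In tissues where a recurrent region had peaks in both states, the difference between fed and fasting rank did not pass the test. The median fed minus fasting rank, after subtracting that of all regions with peaks in both states, was 8.41 in liver, 5.42 in lung, 3.24 in muscle and 2.33 in brown adipose. It was -0.0107 in kidney, -1.09 in heart, -1.79 in spleen and -4.61 in white adipose. The mean was 1.49 rank points (SD 4.21, 4 of 8 tissues above 0, exact sign-flip p = 0.359, adjusted 0.359).

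The recurrent regions lay closer to genes than all merged regions did, as did regions fed-only in 3 tissues. Their summits were a median of 10126 bp from the nearest protein-coding start, against 12164 bp for the recurrent fasting-only regions and 17905 bp for all merged regions. Within 3000 bp of any annotated start lay 33.2% (exact 95% interval 29.9 to 36.7%), against 28% and 23.6%. Regions fed-only in 3 tissues had a median distance of 11374.5 bp and a share of 31.3%, which is inside the interval of the 771. A recurrent region was in the set of 7 libraries at the median, and a merged region in that of 1. The share within 3000 bp rose with the number of tissues in both directions. It was 21.5% of regions fed-only and 22.7% of those fasting-only in 1 tissue. Regions set in a like number of libraries were not read apart. Of the 771 regions, introns held 59.7% and intergenic DNA 29.2%.

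Close to genes, the recurrent fed-only regions exceeded the other groups beside the start. Over 100 and up to 1000 bp from a protein-coding start lay 114 of the 771 regions, 14.8% (12.4 to 17.5%), against 9.26% of the recurrent fasting-only and 6.04% of all merged regions, and 10.8% of regions fed-only in 3 tissues. Within 100 bp lay 14 regions, 1.82% (0.996 to 3.03%), against 2.21% of all merged regions, which is inside the interval. The bin over 500 and up to 1000 bp held 74 regions, 9.60%, against 4.80% of the recurrent fasting-only regions.

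Members near starts had other open chromatin next to them. Of the 534 fed-only calls within 1000 bp of a protein-coding start, 72.8% had a listed fasting peak of the same tissue within 500 bp, at a median gap of 195 bp, against 43.7% for all fed-only calls that near a start. Further from starts it was 23.8% of 2627 calls, with a median gap of 1961 bp. The expected tags of the neighbourhood exceeded 2 times the library background in 59.9% of the calls near starts and 14.7% of the others. When absence was taken to mean no peak of the other state within 500 bp, an alternative chosen after seeing the data, 389 regions were left, and 6.17% of them lay within 1000 bp of a protein-coding start, where 16.6% of the 771 do.

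**Figure D4:**
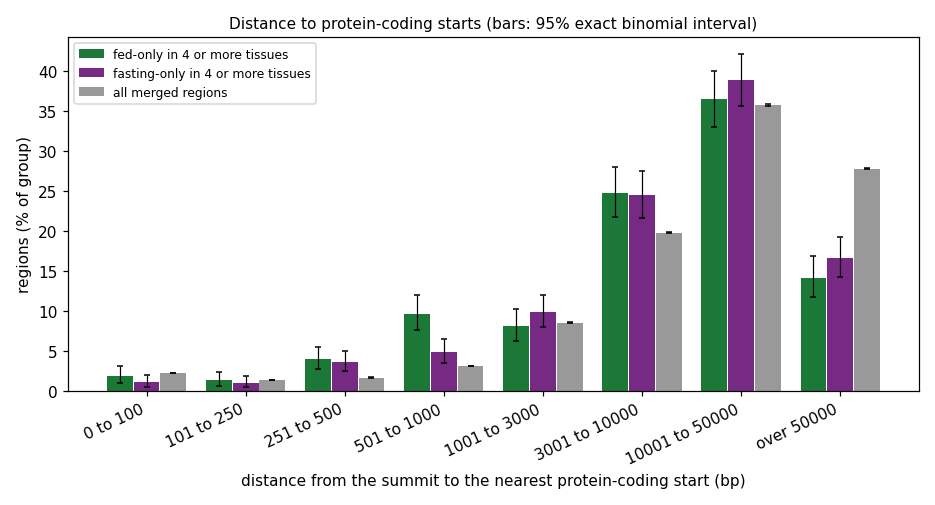
Share of regions (y axis, % of group) by distance from the summit to the nearest protein-coding start (x axis, bp), for the recurrent fed-only regions (green), the recurrent fasting-only regions (purple) and all merged regions (grey), with exact 95% binomial intervals. Between 500 and 1000 bp the recurrent fed-only regions, at 9.60%, lie above the recurrent fasting-only regions, at 4.80%, while most regions of all 3 groups lie further than 3000 bp from a start.

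Among the regions near starts, those of highest mean rank were at Bcorl1 (479 bp), Polr2d (362 bp), Dnajc12 (621 bp), a J-domain cochaperone, Tle3 (51 bp), a corepressor, Gins2 (749 bp), a replication helicase subunit, Ackr3 (566 bp), a chemokine receptor, Dync1i2 (525 bp), a dynein chain, Cfap74 (258 bp), Naf1 (606 bp), a ribonucleoprotein assembly factor, and Txnip (530 bp). The region at Dync1i2 was listed in fed liver at rank 57.3, fed brown adipose at 25.8, fed white adipose at 59.8 and fed lung at 50.1, and in no fasting library. An intergenic region 675 bp from the start of Mak16, a ribosome biogenesis gene, was likewise listed in fed libraries only, with brown adipose at rank 44.3, white adipose at 33.6, heart at 21.4 (below the set threshold), lung at 64.3 and kidney at 19.4.

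The 771 regions had 730 different nearest protein-coding genes, and 38 genes had more than 1 region. Mtmr3, a phosphatase of phosphoinositides, was nearest to 4, at 3776 to 20516 bp, and Zbtb20, a transcriptional repressor, to 3. No gene thus gathered many of the regions.

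Genes of feeding and fasting were read from lists of 20 genes, a gene counting when it was nearest to a region or contained it, which 3.52% of all 21911 protein-coding genes did. Of the genes of fatty acid and triglyceride synthesis 3 of 20 did, namely Scd2, a desaturase, Lpin1, a phosphatidate phosphatase, and Thrsp, a lipogenic regulator. Of genes known to rise with fasting 5 of 20 did, Angptl4, Ppara, Foxo3, Klf9 and Txnip. The circadian clock list had 3 of 20 (Arntl, Rora and Rorb) and insulin and mTORC1 signalling 2 of 20 (Irs1 and Gsk3b), while cholesterol synthesis and uptake had 0 of 20 and glucose uptake, glycolysis and glycogen 0 of 20. For the recurrent fasting-only regions the same lists gave 1 of 20 for fatty acid synthesis, 7 for fasting genes, 5 for the clock, 5 for insulin signalling, 3 for cholesterol and 1 for glucose, against 3.68% of all genes. Foxo3, Klf9, Txnip, Gsk3b and Rora had regions of both directions.

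Angptl4 encodes a fasting-induced inhibitor of lipoprotein lipase. A region in its coding exon, 912 bp from a start, was fed-only in liver at rank 34.3, brown adipose at 23.6, white adipose at 39.9, spleen at 73.6 and lung at 48.0. It was fasting-only in heart at rank 81.7, the highest of the 6 listed values, and unlisted in muscle and kidney. Its neighbourhood was open, with 327 tags against 217 expected in fed brown adipose.

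Txnip encodes an inhibitor of thioredoxin and of glucose uptake. Its intronic region was fed-only in brown adipose at rank 57.6, white adipose at 35.9, heart at 53.4 and kidney at 43.3, fasting-only in liver at 56.8, and in lung was listed in both states at 55.0 fed and 56.8 fasting. Fed brown adipose held 492 tags against 255 expected.

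Ppara encodes the fatty-acid-sensing nuclear receptor PPARα. The region assigned to it lay 28773 bp from its nearest start, inside the noncoding gene Lncppara and 393 bp from the start of Mirlet7c-2, and was fed-only in brown adipose at rank 37.0, white adipose at 65.6, heart at 65.8 and lung at 25.6. Liver listed it in both states at 71.8 fed and 68.4 fasting, muscle at 48.2 and 46.4 and kidney at 51.3 and 58.7.

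Foxo3, a forkhead factor held in the cytoplasm by insulin signalling, had 2 regions. The intronic region was fed-only in liver at rank 19.5, spleen at 45.8, heart at 45.4 and kidney at 46.3, and lung listed it at 25.8 fed and 48.6 fasting. The intergenic region, 21401 bp from the start, was fed-only in muscle at 39.0, brown adipose at 12.3, white adipose at 27.7 and spleen at 83.2. In liver the same intergenic region ranked 75.7 in the fasting and 6.63 in the fed library, which is the opposite direction, and in lung and kidney the fed rank was the higher (30.2 against 12.2 and 59.6 against 38.7).

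Thrsp encodes Spot 14, a lipogenic protein that rises with carbohydrate feeding. An intergenic region 5089 bp from its start was fed-only in liver at rank 78.5, white adipose at 42.8, spleen at 31.7 and kidney at 1.29. Where both states listed it, the fed rank was the higher, 58.3 against 20.9 in brown adipose and 66.1 against 20.4 in heart. No tissue went in the fasting direction there.

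Fabp4 encodes the adipocyte fatty acid binding protein. A region in an exon of the gene outside its coding and annotated UTR parts, 2765 bp from a coding start, was fed-only in liver at rank 26.9, brown adipose at 44.2, spleen at 56.2 and lung at 46.6, and fasting-only in muscle at 17.5. It was listed in neither state in white adipose, the tissue whose marker list holds the gene.

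Arntl encodes the clock activator BMAL1. Its intronic region was fed-only in muscle at rank 27.1, brown adipose at 47.0, spleen at 44.0 and kidney at 53.1, fasting-only in lung at 1.60, and in white adipose ranked 26.6 fed and 62.7 fasting. Gsk3b encodes glycogen synthase kinase 3 beta. Its intronic region, 2510 bp from the start, was fed-only in liver at 50.02, spleen at 64.2, heart at 55.3 and kidney at 31.6, while muscle ranked it 64.0 fed and 71.0 fasting.

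The sequence around the summits, which the peak rule did not use, held CTCF patterns more often and FOX and AP-1 motifs less often in the recurrent fed-only than in the recurrent fasting-only regions. These shares are a description, with no test over the regions. The intervals give counting error over regions of single pooled libraries, so their overlap, or its absence, is no test of the direction. In the 200 bases around each summit, on both strands, a CTCF core (CC, 3 bases of any kind, then AGGGGGC) stood in 12 of the 771 regions, 1.56% (exact 95% interval 0.807 to 2.70%). It stood in 3 of the 875 recurrent fasting-only regions, 0.343% (0.0708 to 0.999%), and in 0.588% of all merged regions, so the first 2 intervals overlap. With a wider pattern chosen after seeing the data (CC, 3 bases of any kind, AG, a pair of any kind, then GGC) the shares were 13.7% (106 regions, 11.4 to 16.4%), 4.80% (42 regions, 3.48 to 6.43%) and 5.20%, and the intervals do not overlap. Among the 389 regions with no fasting peak within 500 bp the wider share was 20.1% (16.2 to 24.4%), against 7.18% of the 376 regions of the fasting direction chosen alike.

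Of the 12 core matches, 9 lay within 50 bp of the summit. The 6 printed here are among the closest to it, each written on the strand of the match with the 12 matching bases in capitals. They lie at chr17:75370290-75370329, chr12:102327737-102327776, chr8:120970536-120970575, chr9:15033749-15033788, chr3:131215062-131215101 and chr12:103306938-103306977, at 3, 9, 14, 24, 35 and 40 bp from the summit, and the names are those of the nearest protein-coding gene.
Ltbp1: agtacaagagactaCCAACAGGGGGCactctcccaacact
Rin3: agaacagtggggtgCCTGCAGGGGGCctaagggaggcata
Foxf1: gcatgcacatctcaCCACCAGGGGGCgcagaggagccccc
Panx1: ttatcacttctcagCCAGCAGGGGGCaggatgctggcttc
Hadh: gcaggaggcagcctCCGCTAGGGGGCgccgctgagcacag
Fam181a: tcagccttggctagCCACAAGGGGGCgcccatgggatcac

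The region assigned to Foxf1, a forkhead factor of lung mesenchyme, lay 113844 bp from the start in an intron of another gene model. It was fed-only in muscle at rank 60.7, white adipose at 34.3, spleen at 77.2, heart at 37.1 and lung at 43.7, fasting-only in brown adipose at 53.8, and listed in both states in liver (69.3 fed, 64.4 fasting) and kidney (29.8 and 58.4). Ltbp1, a latent TGF-beta binding protein, had its region, 13903 bp from its nearest start, fed-only in liver, brown adipose, spleen and lung, with a mean rank of 39.1. The region assigned to Hadh, a mitochondrial beta-oxidation enzyme, lay 56977 bp from its nearest start. It was fed-only in muscle, heart, lung and kidney, with a mean rank of 51.9, and both states were listed in the other 4 tissues.

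FOX (TGTTTAC) stood in 12 regions, 1.56% (0.807 to 2.70%), against 4.80% (3.48 to 6.43%) of the recurrent fasting-only regions and 2.91% of all merged regions. AP-1 (TGANTCA) stood in 6.36% (4.74 to 8.32%) against 10.4% (8.46 to 12.6%) and 7.19%. The CACGTG E-box, which CLOCK and BMAL1 bind among others, stood in 1.82% (0.996 to 3.03%) against 3.66% (2.51 to 5.12%) and 3.32%. The nuclear receptor element AGGTCA stood in 14.1% (11.8 to 16.8%) against 20% (17.4 to 22.8%) and 16.3%. The intervals of FOX, AP-1 and AGGTCA did not overlap between the directions, and those of CACGTG did, which is again counting error over regions and no test of the direction. The CAGCTG E-box, at 16.3% against 16.1%, and the CCAAT box, at 20.4% against 19.9%, differed by less than their intervals. Median GC content was 50% against 51%, and 49.5% over all merged regions.

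The same contrast was then read in regions fed-only or fasting-only in 2 or 3 tissues, tissue by tissue. On the fed side none of these is a member. On the fasting side members were not left out, and 40 of them were fasting-only in 2 tissues and 3 in 3. The regions fasting-only in 1 tissue, read at the end of this paragraph, include 204 members. The CTCF core was more frequent on the fed side in 8 of 8 tissues, by 0.484 points on average (lowest 0.0844, highest 1.04), and the wider pattern in 7 of 8, by 2.56 points. AP-1 was less frequent on the fed side in 8 of 8 tissues, with a mean difference of -2.81 points, as were FOX, at -1.16, and the CACGTG E-box, at -0.550. Each of the core, AP-1, FOX and CACGTG reached the smallest p the exact sign-flip test allows, 0.0078, which became 0.0742 after adjustment over 38 tests and so did not pass the threshold of 0.05. A region of 2 or 3 tissues counts in each of them, so the 8 differences share regions and are not independent, and the p-values may be too small. The wider CTCF pattern had an exact sign-flip p of 0.0156, adjusted 0.0990. In regions seen in 1 state only in 1 tissue the core differed by 0.0772 points, with 5 of 8 tissues higher on the fed side (exact sign-flip p = 0.289, adjusted 0.555). There AP-1 differed by -1.30 points (exact sign-flip p = 0.0469, adjusted 0.198) and the CACGTG E-box by -0.386 points (exact sign-flip p = 0.0391, adjusted 0.198).

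**Figure D5:**
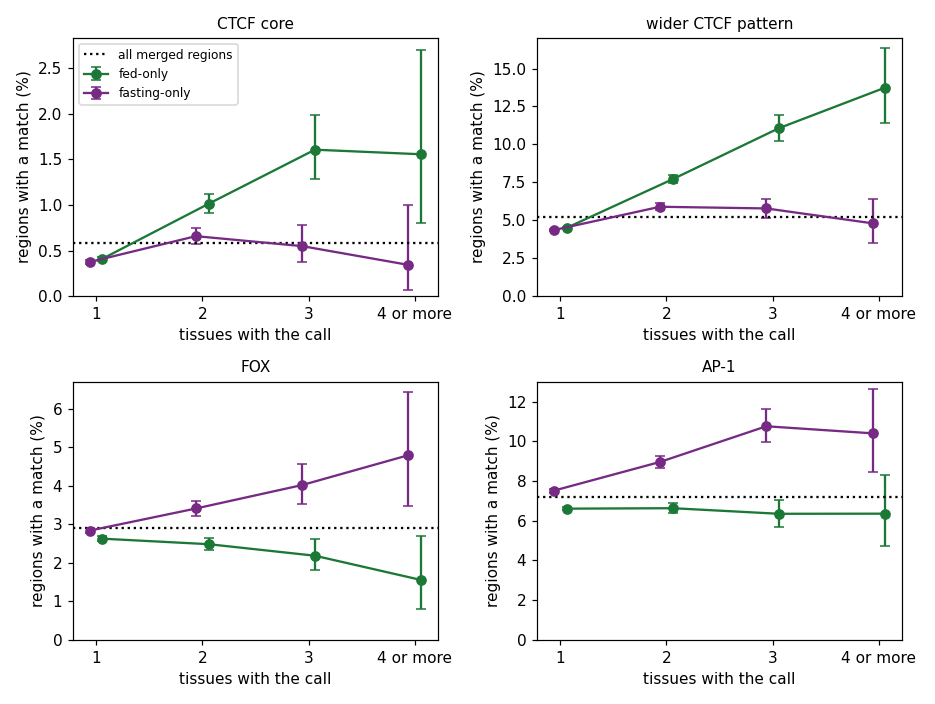
Share of regions with a match in the 200 bases around the summit (y axis, %, scale differs by panel) by number of tissues with the call (x axis), for fed-only (green) and fasting-only (purple) regions with exact 95% binomial intervals, and all merged regions (dotted). The fed-only and fasting-only shares lie close together at 1 tissue and apart at 4 or more, with the wider CTCF pattern at 13.7% against 4.80% and FOX at 1.56% against 4.80%.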

How the data were processed

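ATAC-seq peak lists of 16 pooled libraries were analysed. The authors aligned reads to GRCm38 with Bowtie2, removed duplicate, mitochondrial and blacklisted reads or regions, shifted read ends for Tn5, called peaks with MACS2 and kept the strongest rows up to a fixed list length. The deposited fold enrichment is a ratio of tags to expected tags at the summit, and the deposited columns of significance hold -log10 p and, after the authors' correction, -log10 q for each library. No column is scaled between libraries. In 8 of the 16 libraries every row passed the set threshold, so the length of the list ended the set.

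Rows with the same coordinates were taken as 1 region. Tag numbers were solved from fold and p, with whole tags within 0.001 in 100% of solved regions. The background, proportional to depth, ran from 2.80 to 12.8 tags. Exact Clopper-Pearson intervals (95%) describe counting error alone. Starts and genes are those of GENCODE vM21, which holds 132629 annotated starts. Sequences are from RefSeq GRCm38.p6, and 18 motifs were searched. Tests were two-sided exact sign-flip permutations over 8 tissues, adjusted by Benjamini-Hochberg. Steps were tested on simulated data. Regions, gene lists, motifs and tests were chosen with earlier results of these data known. The named regions are those fed-only in 6 tissues, the 10 of highest mean rank, the 10 strongest near coding starts, up to 10 of listed genes, the strongest of the most frequent combinations and those nearest to the threshold; Dync1i2, Mak16 and the CTCF sites shown were picked among these or by distance to the summit after values were seen. Of these, 1 region is not reported here. Alternatives covered thresholds, list length, merging, absence, thinning to equal depth, autosomes, windows and leaving out tissues. The tools were numba 0.67.0, matplotlib 3.10.9, pandas 2.3.3, scipy 1.17.1, numpy 2.4.6 and Python 3.11.15.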

Additional observations from a re-analysis of the deposited data

Results flagged for a closer look

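The held-out fed-only share moved in opposite directions in 2 tissues. In brown adipose it exceeded that of all merged regions by 25.5 percentage points, and its exact interval (76.8 to 94.4%) lay above the 62.0% of all regions. In liver the difference was -12.99 points, and its interval (37.0 to 57.9%) lay below the 60.4% of all regions. The difference between the 2 tissues was not tested, since each has 1 library per state. Fed over fasting background was 1.89 in brown adipose and 0.993 in liver, and its part in the difference was not tested.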

How the results depend on the processing

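The number of recurrent regions, 771, depended on every threshold: 350 at a -log10 q of at least 3, 21 at 6, 0 among the 50000 strongest regions per library, 1193 when absence was judged against set regions, 405 with merging at 50% of both lengths, 42 after thinning to equal background together with its own thresholds (a thinned -log10 p of at least 5 for the set and 2 for presence), so that the part of depth alone was not tested, and 389 with no fasting peak within 500 bp. Leaving out each tissue gave 351 to 490, fewer by construction, since 4 tissues are then sought among 7. Autosomes gave 751 and absence over the region itself 1065. The fasting-only count exceeded the fed-only count at the main setting (875) but not at a -log10 q of at least 3 (232), at 6 (5), with 50% merging (316), after thinning (25), with the 500 bp rule (376) or without muscle (403 against 461).

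The held-out fed-only difference of 4.71 points ran from 1.86 to 8.74 without each tissue (1.86 without kidney, 1.99 without white adipose, 2.09 without brown adipose, 8.14 without heart and 8.74 without lung), was 2.22 at a -log10 q of 3 and 21.8 after thinning (6 tissues, 5 above 0, exact sign-flip p = 0.0625), turned to -48.2 at a -log10 q of 6, where 3 tissues gave a value, and passed the threshold against recurrent regions at 8.0 (exact sign-flip p = 0.0078). The held-out fasting-only difference turned to -13.6 after thinning, where 1 tissue gave a value, and had none at a -log10 q of 6. The rank difference turned to -0.998 with 50% merging. The cause of these was not tested, and the held-out p-values treat tissues as more independent than they are. The promoter share of 33.2% became 20.6% with a 1000 bp window, 24.6% for protein-coding starts, 37.4% at a -log10 q of 3 and 20.8% with the 500 bp rule. The wider CTCF pattern raised 1.56% to 13.7% by construction. The other alternatives left these results on the same side of the threshold. With the 50000 strongest regions no held-out or rank value could be had. No paired analysis was possible because each group is 1 pooled library and the labels carry no replicate numbers. Depth limits the rule, since an unlisted fasting peak is not shown to be closed.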

Other observations

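The X chromosome held 20 of the 771 recurrent fed-only regions (2.59%), against 9 of the 875 recurrent fasting-only regions (1.03%) and 1.29% of all merged regions. Atp7a and Bcorl1, described above, are among the 20. Chromosome 13 went the other way, with 22 fed-only regions (2.85%) against 54 fasting-only regions (6.17%). These chromosomes were picked after their values were seen, and no test was made.

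Of the recurrent fed-only regions, 129 (16.7%, exact 95% interval 14.2 to 19.6%) lay within 1000 bp of a merged region that is in the set of all 16 libraries. This held for 13.03% of the recurrent fasting-only regions and 4.66% of all other merged regions. The share rose with recurrence in both directions, from 4.36% of regions fed-only in 1 tissue to 8.06% in 2 and 12.5% in 3.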
